A study of Mus musculus with 9 samples.

Results

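RNA from the lungs of mice injected with lipopolysaccharide (LPS) was compared with RNA from control lungs. The comparison holds the 6 arrays of the series' 9 that the labels give to these 2 groups. Each group has 3 arrays, and the other 3 arrays are of mechanically ventilated lungs. The LPS group received E. coli lipopolysaccharide of serotype O127:BO by injection at 3 mg/kg. The labels do not state the route, the time from injection to sampling, the strain, sex or age of the mice, or what the controls received. Nothing in them says that a group's samples are of different mice, so a p-value here covers the scatter among these arrays, and part of it may be technical. Values are log2 ratios to the mean of the 3 control arrays, so a control group has a mean of 0 at every gene, and a difference of 1 is a doubling.

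LPS, a component of the outer membrane of Gram-negative bacteria, is bound by Cd14 and the receptor complex of Tlr4 and Ly96. The complex signals through the adaptors Myd88 and Tirap to NF-kB, which turns on cytokines, chemokines and its own inhibitors such as Nfkbia and Tnfaip3. A second branch, through the kinase Tbk1, leads to type I interferon and from there to the interferon-induced genes, many of which carry an interferon-stimulated response element (ISRE) in their promoters. In the lung, macrophages, epithelium and endothelium respond, and neutrophils enter the tissue.

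The array carries 10012 probes, of which 8983 have a single gene symbol, for 8841 genes. Each array has a floor, a lowest value shared by its faintest probes, and 27.8% to 39.4% of probes lay at it on the 6 arrays. The highest of the 6 floors (that of control array 3) was used for all of them, and 6172 probes for 5477 genes could be tested. A fold change of a gene close to that floor is too small, and where a whole group is at the floor it is only a bound. The lung markers Sftpc and Sftpa1 of alveolar type II cells and Scgb1a1 of club cells were counted as above the floor on all 6 arrays, as was Sftpd.

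The 3 LPS arrays did not look alike, and 2 of them stood apart in different ways. LPS array 1 was more than 1 log2 unit above both other LPS arrays at 454 of the 5477 genes and more than 1 below both at 264. LPS array 2 had a block of very low values. At 355 probes (5.75% of those tested, 316 genes) it lay more than 1.5 log2 units under each of the 5 other arrays, with a median of -3.63, while the medians of the same probes on the 5 others ran from -0.33 to 0.39. At 338 of the 355 the distance from the floor is unknown, so whether these low values are at the floor could not be told. Where they are, the changes resting on them are only bounds. The other 5 arrays had 2 to 31 such lone low probes. LPS array 3 was more than 1 above both others at 45 genes and more than 1 below both at 207. The controls differed as well, control array 1 lying over 1 above both others at 355 genes and control array 2 at 219.

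**Figure D1:**
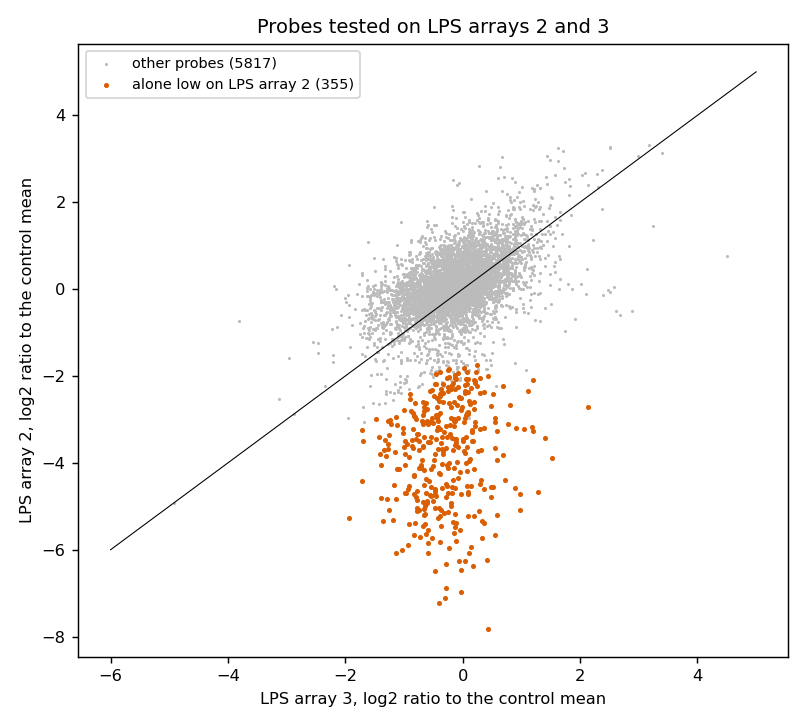
Each point is a tested probe, placed by its log2 ratio to the control mean on LPS array 3 (x axis) and LPS array 2 (y axis), with the line of equal values. The 355 probes that lay more than 1.5 under every other array on LPS array 2 are in orange and form a cloud well under the line, down to -7.82, with values on LPS array 3 around 0.

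No probe passed the threshold of 0.05 after adjustment (limma, Benjamini-Hochberg over 6172 probes), and 0% of the 5477 genes were called. At an unadjusted p under 0.05 (limma), 72 probes were higher and 61 lower after LPS (1.17% and 0.988% of the probes tested), as were 1.24% and 0.931% of the genes. With arrays of the same number treated as a pair the counts were 218 higher and 199 lower at the unadjusted threshold, and again none after adjustment. No label gives these pairs. They were taken from correlations in these same values, so the larger counts are no independent support, and neither are the within-pair values below. Without LPS array 1, 1 probe passed the adjusted threshold, and without control array 1, 2 probes did; they are named below. The median change over all 5477 genes was -0.05. The genes are therefore described here by their values on each array and by whether the 3 LPS values all lay above, or all below, the 3 control values. Such groups without overlap were found with LPS higher at 2.32% of genes (2.27% of probes) and with LPS lower at 4.13% (226 genes, and 4.05% of probes), and the gene shares are the background for every count below. A design of 3 against 3 cannot go below 0.1 in an exact two-sided permutation test of a single gene. That 0.1 is also about the share of genes, both ways together, that arbitrary group labels would leave without overlap. The shares found here are lower, so a gene without overlap is not by itself evidence of an effect of LPS. The adjusted p of every gene named below was between 0.999 and 1.00 in this limma fit, without pairing, array weights or a left-out array.

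Of the 15 genes with the highest LPS mean among those without overlap, Ifit1, Mx2, Mx1, Eif2ak2 and Isg20 are in the list of interferon-induced genes. Cep55, which acts at the last step of cell division, had log2 ratios of -0.46, 0.26 and 0.20 on the control arrays and 1.16, 3.05 and 2.98 on the LPS arrays, a change of 2.39 ± 0.55 (SE) or 5.26-fold. LPS array 1 was the lowest of the LPS arrays and still above all controls. Next came Ifit1, Mx2 and Mx1, antiviral proteins induced by interferon. Dusp6, a phosphatase that switches off ERK, stood at 1.33, 2.35 and 2.31 on the LPS arrays against -1.0, 1.16 and -0.16 on the controls (change 2.00 ± 0.58, 4.0-fold). Control array 2 was not far below LPS array 1 there. Nedd4l, a ubiquitin ligase that limits the epithelial sodium channel, stood at 1.30, 2.62 and 2.03 against 1.27, -1.48 and 0.21, so LPS array 1 was barely above control array 1. The others of the 15 highest were Ccl2, Herc6, Eif2ak2, Tfpi2, 1700040G22Rik, Cflar, Eef1a1, Sephs2 and Isg20, with changes from 1.35 to 1.74. Herc6 is an interferon-induced ligase for the ubiquitin-like protein Isg15, Tfpi2 an inhibitor of serine proteases of coagulation, and Cflar an inhibitor of caspase-8.

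**Figure D2:**
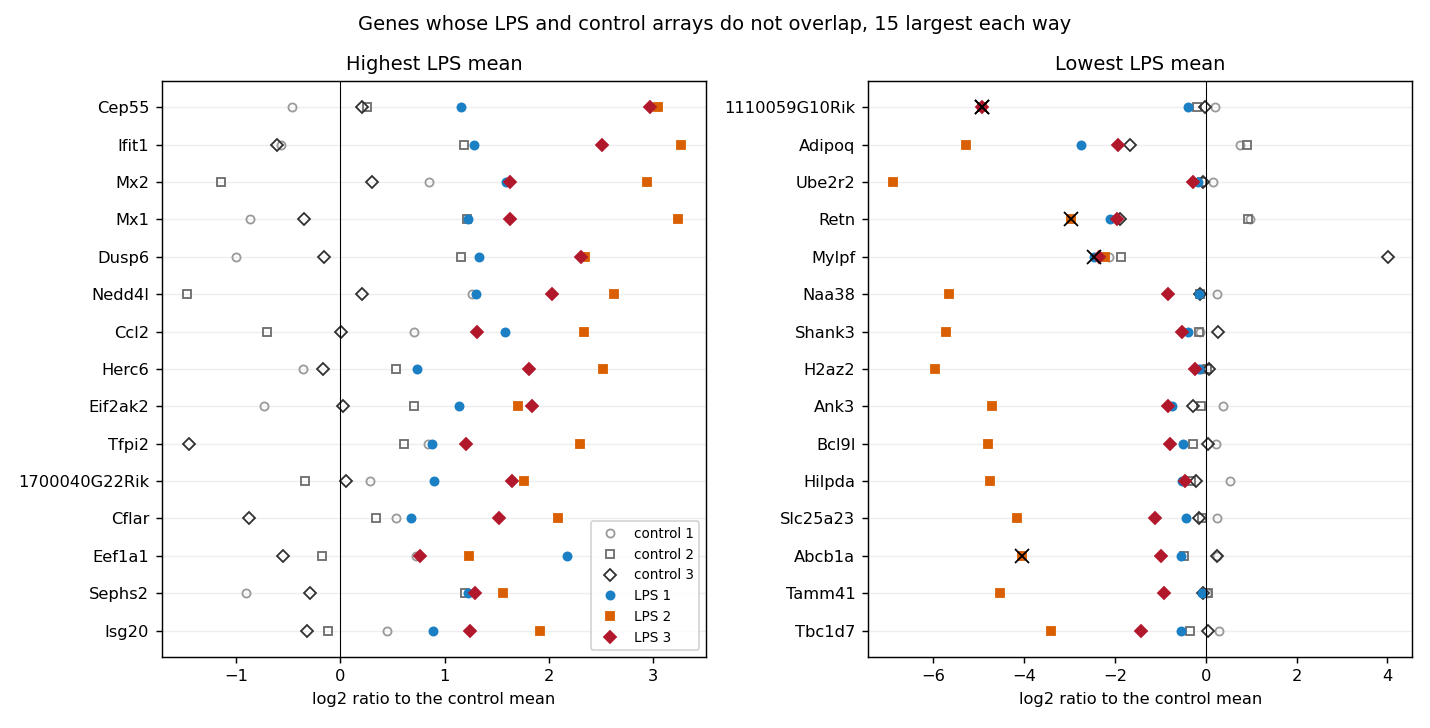
The 15 genes with the highest (left) and lowest (right) LPS mean among genes whose groups did not overlap, with 1 marker per array on the axis of log2 ratio to the control mean; open grey markers are controls, filled markers LPS arrays, and a cross marks a value at the floor. On the left the 3 LPS arrays lie apart from the controls with LPS array 1 nearest to them at most genes; on the right at 12 of the 15 genes LPS array 2 (orange squares) lies far below the other 5 arrays, and Mylpf has its only high value, 4.0, on control array 3.

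Most interferon-induced genes had higher values after LPS. Of the 64 genes listed, 44 were on the array and 34 were tested. The change was above 0 at 30 of the 34, with a median of 0.88 against -0.05 over all genes. Groups did not overlap at 7 of the 34, all with LPS higher, against 2.32% of all genes, and none had LPS lower. Taking the median of the 34 on each array gave 0.86, 1.28 and 0.67 after LPS and -0.09, 0.28 and -0.23 in the controls, so the list medians of the groups did not overlap. LPS arrays 1, 2 and 3 lay above all 3 controls at 21, 27 and 20 of the 34 genes, against 1076, 1574 and 1053 of all 5477. Within arrays of the same number the LPS value was the higher in all 3 pairs at 23 of the 34 genes (67.6%), against 12.2% of all genes. That pairing was chosen from these same values.

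Ifit1, which binds viral RNA that lacks the host's cap methylation, had the highest change of the list. Its values were -0.57, 1.18 and -0.61 on the controls and 1.28, 3.28 and 2.51 on the LPS arrays (change 2.36 ± 0.67, 5.12-fold). Mx2 stood at 0.85, -1.15 and 0.30 on the controls and at 1.59, 2.94 and 1.63 after LPS (change 2.05 ± 0.61), and Mx1, its neighbour in the dynamin-like Mx family, at -0.87, 1.22 and -0.35 and at 1.23, 3.24 and 1.62 (change 2.03 ± 0.70). On all 3 genes LPS array 2 was the highest. Ifit1 and Mx1 were high on control array 2, so that Mx1 on LPS array 1 lay only just above it. Control array 2 was the highest control at 24 of the 34 genes, against 41.5% of all genes. Without control array 2 the median change of the list was 0.92.

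Eif2ak2 is the kinase PKR that halts translation when double-stranded RNA is present. Among the 7 list members without overlap it was the most even across the LPS arrays. It had 1.14, 1.70 and 1.84 there against -0.74, 0.71 and 0.03 on the controls (change 1.56 ± 0.43, 2.95-fold). Isg20, an exonuclease that degrades RNA, had 0.89, 1.92 and 1.25 against 0.44, -0.12 and -0.32. Ifit2 had 1.02, 1.53 and 0.46 against 0.04, -0.02 and -0.02, with 2 of the 3 controls at the floor, so its change of 1.00 is too small. Trim21, a ubiquitin ligase that recognises antibody-coated pathogens, had 0.83, 1.04 and 0.28 against 0.12, 0.27 and -0.39 (change 0.72 ± 0.34), with LPS array 3 next to control array 2.

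**Figure D3:**
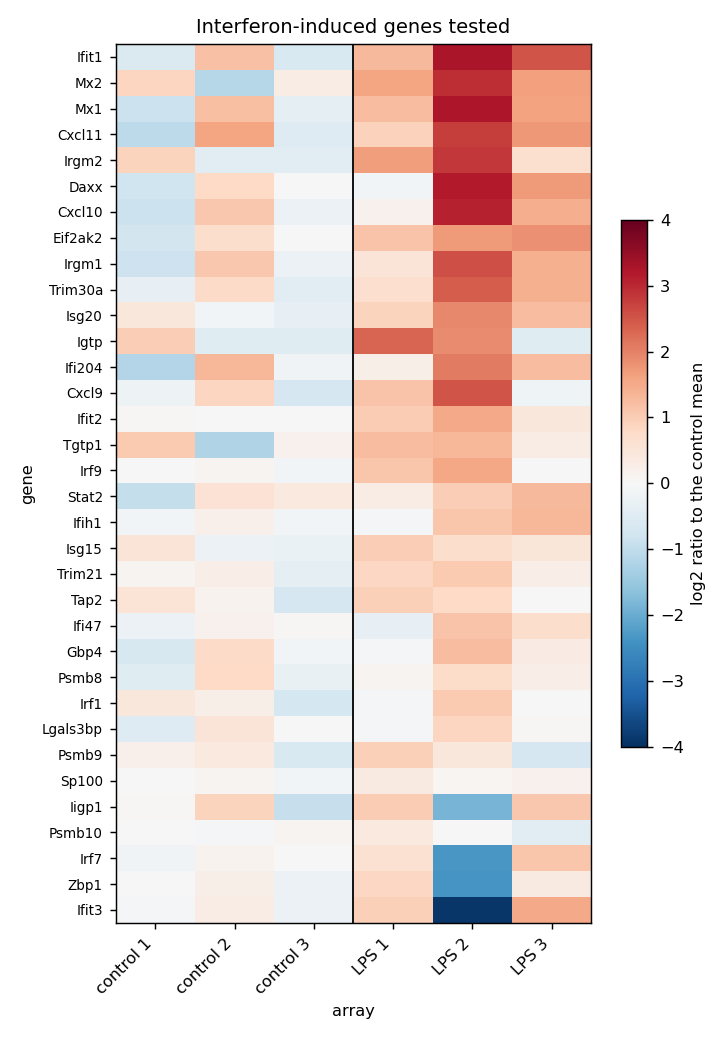
Log2 ratio to the control mean of the 34 tested interferon-induced genes (rows, sorted by their change) on the 6 arrays (columns), red above and blue below the control mean. Most rows are red on all LPS arrays, deepest on LPS array 2, and the blue cells in the LPS array 2 column include Ifit3, Zbp1, Irf7 and Iigp1, while control array 2 is pale red in many rows.

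At 3 members the low block of LPS array 2 decided the mean. Ifit3 stood at 0.95 and 1.53 on LPS arrays 1 and 3 and at -3.89 on LPS array 2, against -0.23 to 0.30 on the controls. Irf7, the transcription factor that amplifies the interferon response, stood at 0.60 and 1.11 on LPS arrays 1 and 3, above all controls, and at -2.34 on LPS array 2. Zbp1, a sensor of nucleic acids that triggers cell death, stood at 0.82 and 0.35 and then at -2.37. Their mean changes of -0.47, -0.21 and -0.40 therefore have a sign that 2 of 3 arrays do not have. With such lone values set to missing the median of the list remained 0.88.

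Promoter sequences are shown for the interferon-induced genes without overlap whose promoter window holds an ISRE, since this element is what such genes are known to share. The windows run from 250 bases before the start of transcription and are given here up to the first 30 transcribed bases, from RefSeq on GRCm38.p6. ISRE matches (GAAANNGAAA on either strand) are in capitals. Ifit1 lies at chr19:34640639-34640918 on the plus strand and has 2 matches, beginning 104 and 85 bases before the start. Eif2ak2 lies at chr17:78882543-78882822 on the minus strand and has 1 match, beginning at base 19 of the transcript. Trim21 lies at chr7:102565453-102565732 on the minus strand and has 2 overlapping matches, beginning at bases 14 and 20 of the transcript.
Ifit1: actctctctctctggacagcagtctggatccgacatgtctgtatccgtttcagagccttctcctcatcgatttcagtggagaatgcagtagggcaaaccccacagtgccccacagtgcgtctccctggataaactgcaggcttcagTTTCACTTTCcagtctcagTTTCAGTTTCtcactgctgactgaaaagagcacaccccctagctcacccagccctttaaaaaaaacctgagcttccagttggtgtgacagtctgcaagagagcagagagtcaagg
Eif2ak2: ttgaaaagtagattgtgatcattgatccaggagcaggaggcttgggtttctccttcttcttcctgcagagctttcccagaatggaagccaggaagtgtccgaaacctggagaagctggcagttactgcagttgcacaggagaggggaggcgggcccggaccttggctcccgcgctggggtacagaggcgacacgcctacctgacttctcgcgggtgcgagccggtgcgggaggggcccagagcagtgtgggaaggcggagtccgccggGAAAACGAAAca
Trim21: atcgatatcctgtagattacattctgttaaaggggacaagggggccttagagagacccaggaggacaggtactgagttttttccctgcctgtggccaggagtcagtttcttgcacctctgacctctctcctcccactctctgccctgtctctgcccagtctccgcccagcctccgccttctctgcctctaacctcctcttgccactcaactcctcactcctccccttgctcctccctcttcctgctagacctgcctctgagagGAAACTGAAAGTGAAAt

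Of the 34 tested members, 26 have a window in the RefSeq table, and 13 of these (50.0%) hold an ISRE, against 3.99% of all 27025 genes with a window and 4.11% of those tested here. The 13 with an ISRE had a median change of 1.25, with 12 above 0 and 3 without overlap (Ifit1, Eif2ak2 and Trim21). The 13 without had a median of 0.38, with 11 above 0 and 2 without overlap (Isg20 and Ifit2). A GAS element (TTCNNNGAA, which reads the same on both strands), a site of STAT dimers, was in 30.8% of the 26 against 9.55% of all genes. No window of the 26 held the NF-kB site GGGNNTTTCC, which 1.89% of all genes hold. These matches are letters in a window and are no evidence that a factor bound there. Mx1 and Mx2 have no entry in the table.

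The GTPases of the guanylate-binding and immunity-related families attack the membranes around intracellular pathogens. They were above 0 at all 9 tested members, the lowest by 0.03. Members such as Irgm1, Irgm2, Tgtp1, Ifi47 and Gbp4 are also in the list of interferon-induced genes, so this is not a separate result. Their median change was 0.94, but no member was without overlap. The list median of control array 2 was 0.76, against 0.51, 1.32 and 0.64 on the LPS arrays. An offset in place of the floor gave a median change of 0.49, and no filter 0.51. Irgm2 was the highest, with 1.67, 2.82 and 0.64 after LPS against 0.88, -0.45 and -0.43. Control array 1 was above LPS array 3 there. Irgm1 had 0.51, 2.58 and 1.42 against -0.84, 1.08 and -0.24, with control array 2 above LPS array 1. Among the transcription factors of the pathway only Stat4 was without overlap, at 0.68, 0.91 and 0.78 against -0.29, 0.17 and 0.12 (change 0.79 ± 0.28). Stat4 passes on the signal of interleukin-12. Irf9 and Stat2, subunits of a factor that binds the ISRE, had mean changes of 0.89 and 0.86 with overlapping groups.

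Chemokines were higher at some members. Of 31 on the array 28 were tested, with a median change of 0.33 (0.20 without control array 1 and 0.22 without control array 3), and 3 were higher without overlap and 1 lower. Ccl2, which draws monocytes, had 1.58, 2.34 and 1.31 on the LPS arrays and 0.70, -0.71 and 0.00 on the controls (change 1.74 ± 0.45, 3.35-fold). The lowest LPS value, 1.31, was above the highest control, 0.70. Cxcl5, a neutrophil attractant made by alveolar type II cells, had 1.32, 1.89 and 0.49 against 0.01, 0.34 and -0.35 (change 1.23 ± 0.42). Ccl22, an attractant of T cells made by dendritic cells, had a small change of 0.51 ± 0.28. Cxcl14 was the lower one, with -0.20, -0.70 and -1.06 against -0.09 to 0.08.

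The CXCR3 ligands Cxcl9, Cxcl10 and Cxcl11, which draw activated T cells, had mean changes of 1.16, 1.56 and 1.81 with overlapping groups. Within same-numbered pairs the difference of Cxcl10 was 1.03, 1.99 and 1.67 and that of Cxcl11 was 1.98, 1.22 and 2.23, all above 0. Cxcl11 reached 0.92, 2.78 and 1.73 after LPS, but control array 2 stood at 1.56. Cxcl1, a neutrophil attractant, stood at 2.32 and 1.32 on LPS arrays 2 and 3 and at -0.66 on LPS array 1, against -0.11 to 0.11 on the controls. Ccl3 had 0.80, 1.86 and 1.46 against 1.09, -0.12 and -0.96. Ccl7, Ccl8 and Cxcl16 were among the lone low values of LPS array 2, at -2.67, -3.23 and -4.55. Ccl8 stood at 2.42 on LPS array 1, the highest value of that gene. Cxcl2 was not analysed here.

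Genes of the NF-kB pathway separated LPS array 1 from LPS arrays 2 and 3. LPS array 1 was the lowest LPS array at 12 of the 13 tested members of the list of NF-kB subunits and targets, against 37.2% of all genes. The median of the list was -0.02 on LPS array 1, 0.01 to 0.08 on the controls, and 1.02 and 0.60 on LPS arrays 2 and 3. The median change over the 3 arrays was 0.42 and without LPS array 1 it was 0.86, while without LPS array 2 it was 0.25 and without LPS array 3 it was 0.23. LPS arrays 1, 2 and 3 lay above all controls at 3, 11 and 10 of the 13 genes, against 1076, 1574 and 1053 of all 5477 genes.

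Nfkbia, the inhibitor IkB-alpha that NF-kB itself induces, stood at -2.10 on LPS array 1 and at 0.97 and 0.90 on LPS arrays 2 and 3, against -0.18 to 0.12 on the controls. Its relative Nfkbib stood at -2.25 and then at 1.02 and 0.28. Both were alone low on LPS array 1, and so was Tank, an adaptor of the kinase Tbk1 (-1.74, then 0.94 and 0.14). Sod2, the mitochondrial superoxide dismutase, was higher without overlap, with 0.61, 1.13 and 2.21 against 0.40, 0.60 and -1.01 (change 1.32 ± 0.57), with LPS array 1 next to the highest control. Tnfaip3, the ubiquitin-editing inhibitor A20, was without overlap too, at 0.12, 0.35 and 0.43 against -0.14 to 0.08. Cd40, a co-stimulatory receptor, was high on LPS array 2 alone, at 2.83 against 0.27 and 0.28 on the other LPS arrays.

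The receptors and adaptors of the LPS pathway gave 17 tested genes of 28 on the array, with a median change of 0.26 and 1 without overlap. This was Tirap, at 1.43, 0.47 and 0.85 against -0.16, -0.11 and 0.26 (change 0.92 ± 0.34). Myd88 had the highest mean, 1.72, from 1.46, 3.04 and 0.67, but control array 2 stood at 1.55. Cd14, the receptor that hands LPS on, stood at -0.29 on LPS array 1 and at 1.46 and 0.90 on LPS arrays 2 and 3, against -0.12 to 0.07. Ly96 had -0.34, 0.63 and 0.76. Tlr4 was above the floor on 1 array of 6 and was not tested, and Lbp lay at the floor on all 6. Without control array 3 the median of the list turned to -0.09, below 0.

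Of 39 cytokines on the array 29 were tested, with a median change of 0.10 (0.05 without LPS array 2, 0.19 without control array 2) and none without overlap. Csf2, the growth factor GM-CSF of alveolar macrophages, stood at -1.26 on LPS array 1 and at 2.64 and 2.30 on LPS arrays 2 and 3, against -0.80, 0.46 and 0.34. Il10 had -0.37, 1.82 and 1.20, and Ebi3 had -0.84, 1.73 and 1.37, in the same order of arrays. Il1b had -0.84, 1.09 and 0.79 against 0.39, 0.13 and -0.52. In each of these 4 genes LPS array 1 was lowest and LPS array 2 highest of the LPS arrays. Il6 stood at 1.41 on LPS array 3, at -0.79 on LPS array 1 and at -3.43 on LPS array 2, against -0.19 to 0.32, so its mean of -0.94 rests on the lone low value. Neither Tnf, at the floor on each of the 6 arrays, nor Il1rn, above it on 2, could be tested.

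The split of LPS array 1 went through some other lists of inducible genes but not all. In the order LPS array 1, 2, 3 the medians were -0.48, 0.84 and 0.50 for acute phase proteins and -0.59, 0.87 and 0.76 for glucocorticoid-induced genes, while control medians ran from -0.32 to 0.24 and from -0.03 to 0.06. LPS array 1 was lowest at 8 of 14 and 10 of 13 of their tested members, against 37.2% of all genes. It was lowest at 10 of 28 chemokines, 6 of 17 genes of LPS sensing and 5 of 13 adhesion genes. Ptx3, a soluble pattern recognition protein, had -1.79, 1.60 and 1.21 against -0.55, -0.13 and 0.68. Orm1, a carrier protein of plasma, had -2.00, 0.85 and 0.73 against -0.62, 1.01 and -0.39, so LPS arrays 2 and 3 lay within its controls. Errfi1, an inhibitor of the EGF receptor that is in the glucocorticoid list and the list of feedback inhibitors, had -0.87, 1.28 and 1.49 against -0.35 to 0.31. Neither the acute phase nor the glucocorticoid list had a member without overlap. The median change of the acute phase list, 0.21, was 0.56 without LPS array 1 and -0.04 without LPS array 3, and that of the glucocorticoid list, 0.36, was 0.77 and 0.09.

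**Figure D4:**
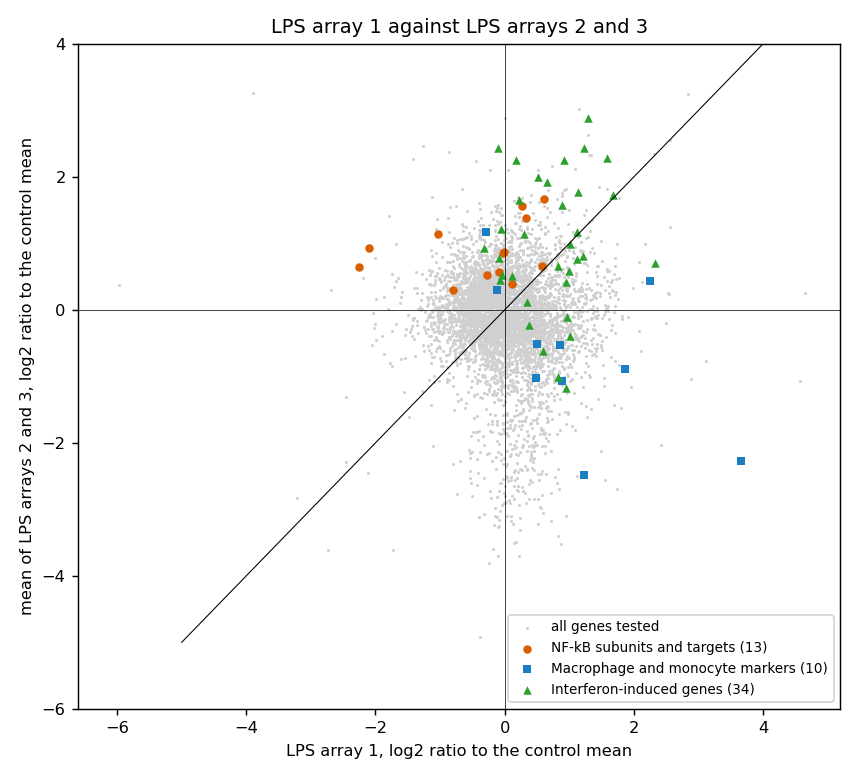
Each point is a gene, placed by its log2 ratio to the control mean on LPS array 1 (x axis) and by the mean of LPS arrays 2 and 3 (y axis), with the line of equal values; grey is all 5477 genes. NF-kB subunits and targets (orange) all lie above the line, 8 of the 10 macrophage and monocyte markers (blue) lie below it, and interferon-induced genes (green) lie to the right of 0 at 28 of 34.

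Feedback inhibitors of cytokine and MAP kinase signalling had 18 tested genes, a median change of 0.11 and 2 higher without overlap, Dusp6 and Rgs1. The median was 0.38 without LPS array 1, 0.32 with array weights and 0.04 without control array 3. Rgs1, a brake on chemokine receptors, had 0.66, 0.45 and 0.49 against -0.17, 0.34 and -0.17, with 2 controls at the floor. Socs1, which blocks interferon receptors, had 0.54, 1.67 and 1.58 against -1.09, 1.05 and 0.05, and Socs3, which blocks the receptors of the interleukin-6 family, had -0.22, 1.09 and 0.89 against 0.52, -0.04 and -0.48. Both overlapped the controls through LPS array 1.

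Of the coagulation and fibrinolysis genes 15 were tested and 2 were higher without overlap. Tfpi2 stood at 0.88, 2.30 and 1.21 against 0.84, 0.61 and -1.46. Serpinb2, an inhibitor of plasminogen activators, stood at 0.21, 2.56 and 0.83 against -0.35, 0.19 and 0.15. In both, LPS array 1 was just above the highest control. F3, tissue factor, which starts coagulation, stood at -0.23 on LPS array 1 and at 2.37 and 1.83 on LPS arrays 2 and 3, against -0.16, 0.42 and -0.26. Plaur, the receptor of urokinase, went the other way, with 4.65 on LPS array 1, -0.72 on LPS array 2 and 1.23 on LPS array 3. Of 13 adhesion genes none was without overlap, and their median change of 0.29 turned to -0.09 without control array 3. Vcam1 had 0.16, 1.55 and 1.06 against -0.17, 0.77 and -0.60, and Selp, P-selectin of platelets and endothelium, had -0.60, 1.60 and 0.90 against -0.14 to 0.25. Icam1 was not analysed here.

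Macrophage genes were mostly highest on LPS array 1, and so were other lists. The median of the 10 tested macrophage and monocyte markers was 0.87 on LPS array 1, -0.58 on LPS array 2 and -0.66 on LPS array 3, with controls at 0.08, 0.19 and -0.43. LPS array 1 was the highest LPS array at 8 of the 10, and at 10 of 12 cathepsins, against 40.7% of all genes. Cathepsins are lysosomal proteases, abundant in macrophages, and their medians were 0.85, 0.20 and -0.50. Chil3, the chitinase-like protein of alveolar macrophages, ran from -3.81 on LPS array 3 and -0.73 on LPS array 2 to 3.66 on LPS array 1, and from -2.22 to 1.81 on the controls. Lyz2 had 2.25, 1.39 and -0.53 against 0.83, 0.03 and -0.86. LPS array 1 was also the highest LPS array at 8 of 11 endothelial markers, 6 of 10 T and NK cell markers, 8 of 12 alveolar type II markers and 17 of 21 potassium channels. No difference between these lists was tested. In bulk tissue fewer cells of a type and less RNA per cell cannot be told apart.

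Single genes picked after their values were seen were also high on LPS array 1. Chia1, an acidic chitinase, stood at 4.58 on LPS array 1 and at 0.01 and -2.15 on LPS arrays 2 and 3. Retnla, induced by interleukin-4 in macrophages, stood at 3.12 and then -0.91 and -0.61, and among the controls at -2.68, 3.08 and -0.40, so control array 2 was as high as LPS array 1. H2-Ea, a chain of the class II molecule H2-E, had 2.55, 0.33 and 0.16 against -0.47, 1.60 and -1.13. Tpsb2, a tryptase of mast cells, was alone high on LPS array 1 at 2.53, the other 5 arrays lying between -0.51 and 0.37. In all, 6 genes were alone high on LPS array 1 and 7 alone low, the farthest being Samhd1, a nuclease that limits viral replication, at -5.97.

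Of the 12 neutrophil markers on the array 5 were tested, and none was without overlap. Their median was -0.37, -0.12 and -0.86 on the LPS arrays and 0.50, -0.37 and -0.13 on the controls. S100a8, a major cytosolic protein of neutrophils, had -1.54, -0.92 and 0.17 against 0.52, -1.52 and 0.99. Ngp, a granule protein, had 0.27, -1.63 and -0.90 against 0.60, -0.86 and 0.26. The 10 T and NK cell markers had a median change of 0.01, with 5 above 0 and 5 below. Their medians were 0.53, -0.17 and -0.31 on the LPS arrays and -0.09, 0.35 and -0.21 on the controls. Only Cd3d, a chain of the T cell receptor complex, was without overlap. It was higher, at 0.72, 0.78 and 0.67 against 0.00, 0.27 and -0.27 (change 0.72 ± 0.28).

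Alveolar type I markers were among the few lists whose LPS medians all lay above the controls, with 0.22, 0.79 and 1.02 against -0.12, 0.11 and -0.17 over 6 genes. Of 98 lists this held for 4, the others being interferon-induced genes, interleukin receptors, and aquaporins with sodium pumps. For 6 lists the LPS medians all lay below. Arbitrary group labels would leave about 0.1 of lists without overlap, both ways together. Such a list median is therefore not by itself evidence of an effect of LPS. The type I and aquaporin lists share the gene Aqp5, so they are not separate results. Aqp5, the water channel of type I cells and airway glands, had the largest mean change of all tested genes, 3.11 ± 1.14. It stood at 2.83, 3.31 and 3.17 on the LPS arrays and at 2.98 on control array 1, while control arrays 2 and 3 were at the floor at -1.49. Its groups therefore overlapped, and with 2 controls at the floor its change is too small. Without control array 1, Aqp5 passed the adjusted threshold with a change of at least 4.60 (limma adjusted p 0.0402), and so did Plxdc2, with at least 3.96 (adjusted p 0.0402). Both remaining controls were set to the floor, so they have no measured spread, which the p-values rest on, and the changes are bounds. Plxdc2 had the same layout, with 2.56, 2.74 and 2.38 after LPS, 2.80 on control array 1 and both other controls at the floor.

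Pdpn, podoplanin of type I cells, went against its list, with -0.33, -0.26 and -1.05 and lower without overlap. Atp1b1, a beta subunit of the sodium pump that clears alveolar fluid, was higher without overlap, at 0.59, 1.00 and 0.74 against 0.10, 0.52 and -0.62 (change 0.78 ± 0.36). Alveolar type II markers had medians of 0.18, -0.27 and -0.60 against 0.26, 0.12 and -0.33, with none of 12 without overlap. Sftpc, a surfactant protein of type II cells, had 0.20, 0.35 and 0.10 against -0.58, 0.42 and 0.16. Napsa, a protease that processes surfactant proteins, had -0.04, -0.84 and -1.69 against -0.17 to 0.18, but a second probe of the gene had a change of 0.05. The 8 club cell markers had a median change of -0.05, with 2 above 0 and 6 below. Only Aldh1a1 was without overlap, higher, at 0.68, 0.65 and 0.43 against -0.42, 0.02 and 0.40. LPS array 3 was just above control array 3 there.

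**Figure D5:**
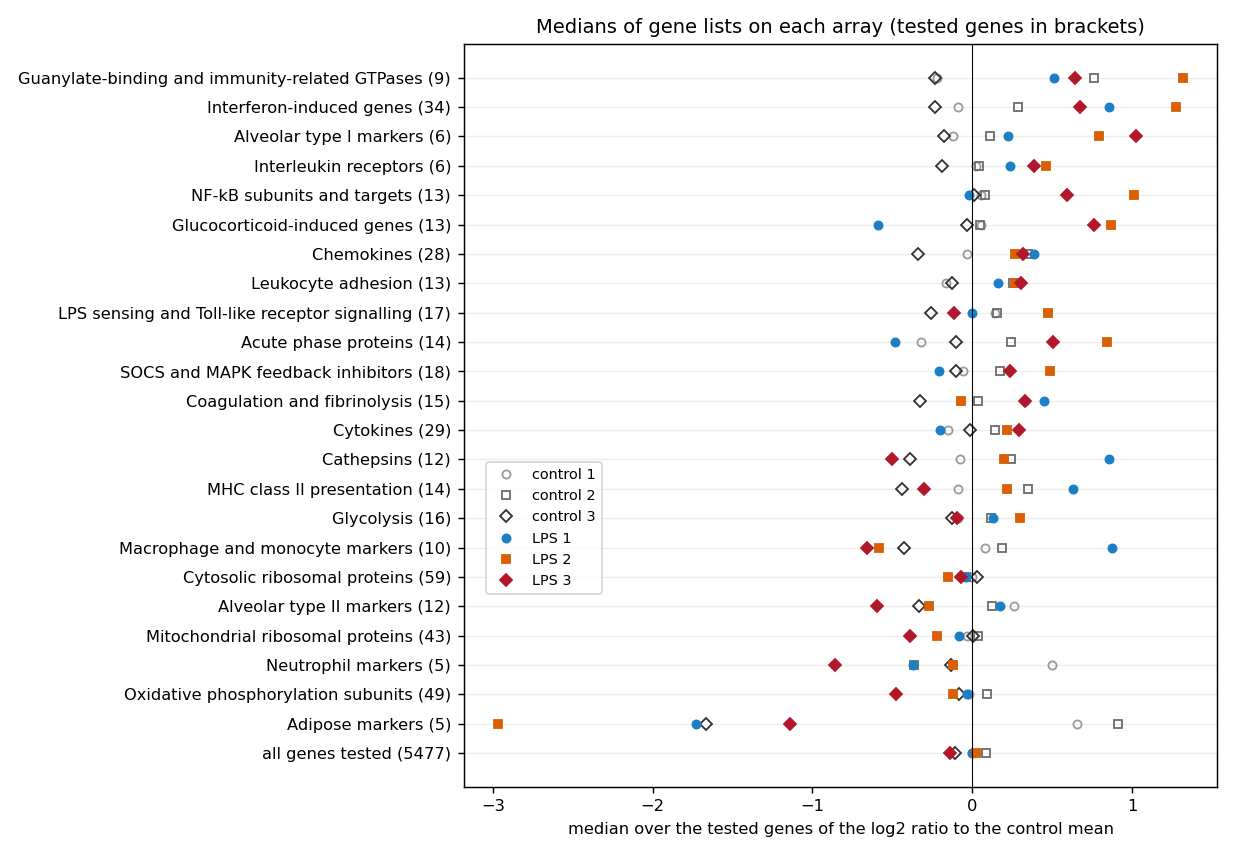
Median over the tested genes of a list of the log2 ratio to the control mean, on each of the 6 arrays (open grey markers controls, filled markers LPS arrays), with the number of tested genes in brackets; lists are sorted by their median change and the last row is all 5477 genes. Interferon-induced genes lie to the right on all LPS arrays, LPS array 1 (blue) lies left of LPS arrays 2 and 3 for NF-kB and glucocorticoid-induced genes and right of them for macrophage markers and cathepsins, and for adipose markers control array 3 lies among the LPS arrays.

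Some genes of glycolysis had higher values after LPS, with Hk2 and Pfkfb3 highest on LPS array 2. Hk2, a hexokinase, had 0.99, 1.84 and 1.15 against 0.07, 0.64 and -0.71 (change 1.33 ± 0.43, 2.51-fold). Pfkfb3, which raises the activator of phosphofructokinase, had 0.53, 1.61 and 0.55 against -0.09, 0.33 and -0.24. With Eno2 they were the 3 of 16 tested glycolysis genes without overlap, all higher (18.8%, against 2.32% of all genes). The list as a whole did not move 1 way. Its median was 0.06, with 9 members above 0 and 7 below. The change was over 1 at 1 member and under -1 at 2.

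Of 49 oxidative phosphorylation subunits 41 had a change below 0, against 3065 of all 5477 genes, with a median of -0.25. The lower mean was small on LPS array 1, the list medians being -0.03, -0.12 and -0.48 on the LPS arrays and -0.02, 0.09 and -0.08 on the controls. Lower without overlap were 6.12% of members, against 4.13% of all genes, namely Ndufa6, Ndufc1 and Ndufb9, all subunits of complex I. Ndufa6 had -0.59, -0.86 and -1.12 against 0.12, 0.16 and -0.28 (change -0.85 ± 0.29). Another 7 members were in the low block of LPS array 2, among them Uqcrb at -7.22 and Ndufa3 at -6.50, and with lone values set to missing the list median was -0.22.

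Mitochondrial ribosomal proteins gave 5 of 43 lower without overlap (11.6%, against 4.13%) and 1 higher, with medians of -0.09, -0.22 and -0.39 on the LPS arrays, all below the controls (-0.03 to 0.04). Mrpl34 had -0.73, -0.36 and -1.07 and Mrpl46 had -0.72, -0.62 and -0.80, with controls between -0.19 and 0.21. Cytosolic ribosomal proteins had a median change of -0.13 over 59 genes, of which 9 were in the low block of LPS array 2. That median was -0.06 without LPS array 2, -0.07 without LPS array 1, -0.08 without control array 1 and -0.10 with lone values missing.

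Of the 15 lowest genes without overlap, 12 were alone low on LPS array 2, part of the block whose distance from the floor is mostly unknown. Ube2r2, a ubiquitin-conjugating enzyme, stood at -6.89 there and at -0.18 and -0.29 on the other LPS arrays, against -0.09 to 0.15 on the controls. H2az2, a histone variant, had -5.97 there and -0.14 and -0.24 on the others. Mylpf, a light chain of fast skeletal muscle myosin, was low on each array but control array 3, which stood at 4.0. The other 3 were Mylpf, Retn (below) and 1110059G10Rik, at -0.39 on LPS array 1 and at the floor, -4.92, on both other LPS arrays. Without LPS array 1, 1110059G10Rik passed the adjusted threshold with a change of -4.92 (limma adjusted p 0.0140), which is a bound.

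Adipose genes had the lowest list median, -2.34 over 5 tested genes, and 2 of them were lower without overlap. Adipoq, the fat cell hormone adiponectin, had -2.74, -5.28 and -1.93 against 0.75, 0.91 and -1.66 (change -3.32 ± 1.00, 9.98-fold lower). Retn, resistin, had -2.12, -2.97 and -1.95 against 0.96, 0.93 and -1.89 (change -2.34 ± 0.78, 5.08-fold lower). Its value on LPS array 2 is at the floor, so this change, which is also the list median, is too small. With each array at its own floor both were -2.49. Fabp4, the fatty acid carrier of fat cells and some endothelium, had -1.73, -6.07 and -1.14 against 0.43, 1.26 and -1.70. In all 3 genes control array 3 lay with the LPS arrays. The list median without control array 3 was -3.29, and without LPS array 2 or with lone values missing -1.43. Whether the dissected pieces held different amounts of fat was not tested.

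Other genes among those with the smallest p had smaller changes. Smr2, a salivary-type secreted protein gene, had 0.92, 1.07 and 0.92 against -0.18, 0.16 and 0.02, and 1700040G22Rik had 0.89, 1.76 and 1.65 against 0.28, -0.34 and 0.05. On the lower side were Lrrc6, needed to assemble the dynein arms of cilia, at -1.55, -0.88 and -1.59 against -0.10, 0.32 and -0.22, and Htra3, a secreted serine protease, at -1.27, -0.92 and -1.51 against -0.27, -0.02 and 0.29. Heyl, a target of Notch in vascular smooth muscle, had -0.87, -1.01 and -1.10 against -0.12, -0.12 and 0.24. Mmp11, a stromal metalloprotease, had -0.89, -0.81 and -1.35 against 0.14, -0.30 and 0.15, and Cdk5rap1, which modifies mitochondrial transfer RNA, had -0.73, -1.23 and -1.51 against -0.10, -0.08 and 0.18. At these lower genes all 3 LPS arrays lay below the controls.

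Counts without overlap in other families are set against 2.32% higher and 4.13% lower over all genes. Solute carriers, with 85 tested genes, had a median change of -0.06, with 3 higher (3.53%) and 4 lower (4.71%). Zinc finger proteins had 3 higher (4.92%) and 5 lower (8.20%) of 61, and proteasome subunits 0 of 36. Ubiquitin-conjugating and ligase genes had 4 higher (6.90%) and 2 lower (3.45%) of 58. Collagens had 1 each way of 18 (5.56%). No difference of these shares from those of all genes was tested. Among 24 heat shock proteins and chaperones 2 were higher without overlap (8.33%). Bag3, a co-chaperone of Hsp70, had 0.34, 1.26 and 1.25 against -0.26, 0.24 and 0.02 (change 0.95 ± 0.35), and Hspa2 was the other. Of genes at the floor on all 3 controls and above it on all 3 LPS arrays there was 1, H2-Ob, by 0.12, and 4 were the reverse, Echdc3, Rbm38, Cdc25a and Dnaaf1, with bounds from -0.61 to -0.15. A gene's value here is that of 1 probe. Among 72 genes with more than 1 tested probe, 43 second probes had the sign of the first and 30 the opposite.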

How the data were processed

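RNA of mouse lung was measured on arrays, 3 of a control and 3 of an LPS group. The deposited table holds a ratio per probe and array on a linear scale, as tested on its values: the log2 ratios of the 3 controls average 0 at every probe (largest deviation 2.49e-09), which is what division by the controls' geometric mean gives. Array maker, dyes, normalization and software: not given in the sources used here. No level of one gene against another is left. Nothing gives the depth or the signal over background; the number of arrays limits the precision.

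At 4690 probes 2 or more of the 9 arrays held values of 1 fixed pattern (tolerance 1e-06, log2), read as the arrays' floors. At these probes values at or under the highest of the 6 floors (log2 0.40) were raised to it. The other 5322 probes kept their values and were counted as above it, so a floor value on 1 array alone was not seen. All values were re-centred on the controls. A probe was tested if above the common floor on 3 or more of 6 arrays or if its distance from the floor is unknown, which left 6172. The LPS minus control difference was fitted in limma 3.58.1 (R 4.3.3, two-sided, threshold 0.05 after Benjamini-Hochberg), checked on simulated data. Lone values lay over 1.5 from all 5 other arrays. Tables and plots were made in Python 3.11.15. Gene names came from the platform's annotation; 1028 probes have none and 1 has several. Where a gene had more probes, its value is that of the probe with most arrays above the floor.

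Same-numbered LPS and control arrays had correlated deviations (0.50, 0.25 and 0.20), so the numbers were taken to pair them, on the data alone.

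Named genes are the 15 highest and lowest without overlap, the 5 smallest p each way, a list of LPS genes, up to 5 members of a list by p, genes at the floor in 1 group, and lone values on LPS array 1; others, such as Plxdc2, Retnla and the members listed as lone on LPS array 2, were picked after their values were seen. The members and lists were chosen with earlier results of these data known, and the pattern for interleukin receptors was altered after the values were seen, to leave out an antagonist. Alternatives covered floor, filter, normalization, array weights, pairing and single arrays.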

Additional observations from a re-analysis of the deposited data

How the results depend on the processing

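The alternatives tried were other treatments of the floor, filters, normalizations, array weights, missing lone values, pairing and each array left out. None of 39 genes (the largest changes without overlap, the smallest p, and Aqp5, Plxdc2 and Fabp4) changed direction where tested. Most of the 39 were picked for groups without overlap. Leaving out an array cannot reverse the sign of such a gene, so this outcome was largely fixed by the choice. Of 23 list medians 9 changed sign in at least 1 alternative. Those of LPS sensing and leukocyte adhesion did so without control array 3, beyond the spread between replicates, and those of macrophage, neutrophil and alveolar type II markers, cathepsins, acute phase proteins, glycolysis and MHC class II within it, so no direction is given for them. The probes past the adjusted threshold were 0 under each setting but those that left out an array, where they were 0 to 2. With the replicate block for the pairing, 218 probes were higher and 199 lower at an unadjusted p under 0.05, against 72 and 61; with array weights there were 201 and 201. Quantile normalization gave 35 higher and 23 lower, dividing each array by its floor 23 lower, and no filter 139 lower. Probes lower without overlap were 137 under quantile normalization and 129 after division by the floor, against 250. With an array left out, the unadjusted counts were 22 to 223 higher and 32 to 268 lower, and those without overlap 219 to 748 higher and 397 to 843 lower, since 3 arrays against 2 overlap less often by construction. The median of interferon-induced genes was 0.49 with an offset added to every value and no floor, and 0.55 with no filter, against 0.88. Other list medians moved beyond the spread between replicates: adipose markers -0.815 with the offset; cytosolic ribosomal proteins -0.066 with the offset and -0.070 under quantile normalization; coagulation 0.60 under a stricter filter; leukocyte adhesion 0 with no filter; and interleukin receptors 0.29 with the offset, 0.28 at the highest of 9 floors, 0 with no filter, 0.37 under a stricter filter and 0.30 after division by the floor. With 1 array left out, the medians were -0.0909 to 0.301 for LPS sensing, -0.0886 to 0.499 for adhesion, -0.148 to -0.0626 for cytosolic ribosomal proteins and 0.32 to 0.49 for interleukin receptors. The cause of the other differences was not tested.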
